A study of Mus musculus with 12 samples.

Results

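The genes described here are Bach1 and the factors that share its binding sites or set their activity: its relative Bach2, the small Maf proteins Mafk, Mafg and Maff, the activators Nfe2l1 (Nrf1) and Nfe2l2 (Nrf2), and Keap1, the protein that restrains Nrf2. Every probe carrying one of these 8 gene symbols in the deposited probe table was taken, which gave 12 probes of the 56605 on the array. The signal came from C2C12, an immortal myoblast line from C3H mouse muscle, on 12 one-colour Agilent arrays. Cells received either a negative control siRNA (siControl) or an siRNA against Bach1 (siBach1), and all of them reached confluence the day after transfection. RNA was taken at that point, day 0, or after 2 days in medium with 2% horse serum, day 2, which turns C2C12 myoblasts into myotubes. The 4 groups siControl day 0, siBach1 day 0, siControl day 2 and siBach1 day 2 had 3 replicates each. A single siRNA against Bach1 was used on the arrays, the one called siBach1-2 in the methods, so that what is due to Bach1 and what is due to that siRNA cannot be told apart. The methods state that the experiments were done in triplicate, but the sources do not say whether replicates were separate cultures. The p-values then measure only the spread between these arrays, which may be technical.

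Bach1 and Bach2 belong with Nrf1 and Nrf2 to the CNC family of basic leucine zipper proteins, which bind DNA only as partners of a small Maf protein. The small Mafs have no activation domain of their own, so that the pair at a Maf recognition element (MARE) or antioxidant response element (ARE) represses when the partner is Bach1 and activates when it is Nrf2. Haem releases Bach1 from DNA, Keap1 hands Nrf2 to a ubiquitin ligase, and Nrf1 is held at the endoplasmic reticulum until it is cleaved and drives the genes of the proteasome. The best known target in most cells, muscle cells included, is Hmox1, which encodes the haem-degrading enzyme haem oxygenase-1.

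Bach1 was the only member with a lower signal by the test in siBach1 cells at day 0. At day 2 Maff, Keap1 and 1 of the 2 Nfe2l1 probes were called lower as well. These 3 probes had differences of the same sign at day 0 (-0.19, -0.27 and -0.23) that did not pass. Without a block, limma did not call their silencing effect different between the days (adjusted p = 0.1, 0.76 and 0.47). The values are log2 signals over the 75th percentile of the array, and a probe was called where limma gave an adjusted p under 0.05 over the 29664 probes tested. At day 0, 1 of the 11 tested member probes was called lower and 0 were called higher, while 17.1% of all tested probes were called, 8.32% lower and 8.80% higher. At an unadjusted p under 0.05 there were 4 member probes lower and 1 higher, as in the methods' unadjusted test, beside 31.1% and 28.2% of all probes by these tests. At day 2, 4 of 11 were called lower and 0 higher, against 12% of all probes called, 6.26% lower and 5.75% higher. Both unadjusted tests also had 4 lower and 0 higher at day 2, beside 27.3% and 24.2% of all probes. With a 2-fold limit added, 1 member probe was left at each day, Bach1, against 2.79% and 2.17% of all probes. Arrays of siBach1 and siControl did not overlap for 6 of 11 member probes at day 0, 5 of them lower, against 37.3% of all probes, and for 5 at day 2, all lower, against 32.8%. With the replicate number as a block, the count at day 0 was 2 and that at day 2 was 4, against 27.5% and 21.3% of all probes. Bach1, the siRNA's own target, is among the lower probes in every one of these counts at both days. They are therefore not counts of a response of the other members alone.

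**Figure D1:**
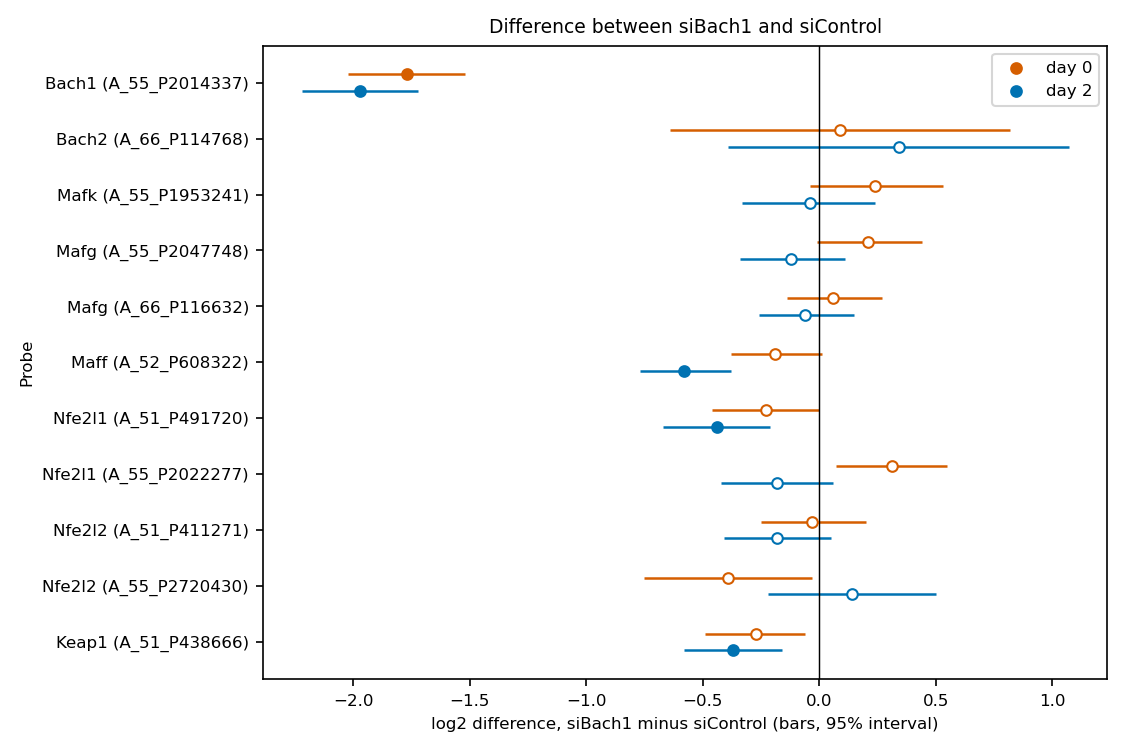
Log2 difference between siBach1 and siControl (x axis, siBach1 minus siControl) for the 11 tested member probes (y axis) at day 0 (orange) and day 2 (blue), with 95% intervals from limma over 3 arrays a group. Filled points passed an adjusted p of 0.05. Bach1 lies at -1.77 and -1.97, far from the other members, which lie between -0.58 and 0.34.

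Each array had 62976 spots, with 26921 to 33313 probes well above background by the scanner's own rule and no saturated spot. Arrays of a group correlated at 0.9855 to 0.9952 over the tested probes. The slide that held replicate 3 was not the slide of replicates 1 and 2. Within a slide, groups lay in separate columns in the same order, so that position and group cannot be told apart. Of 10 genes that mark myoblasts and myotubes, 9 or 10 were well above background on every array. Their summed signal was 130 to 142 times the 75th percentile signal in siControl and 146 to 163 times in siBach1 at day 0, and 1410 to 1490 times and 949 to 1100 times at day 2. At day 2, 3 of the 9 tested myoblast and myotube genes were lower in siBach1, against 7.40% of all genes, and 0 were higher. They were Myod1 (-0.48) and Myog (-0.98), transcription factors of the muscle lineage, and Tmem8c (-0.59), the fusion protein myomaker. At day 0 1 of the 9, Cdh15 (a cadherin of myoblasts), was higher (0.45, adjusted p = 0.0051), against 10.1% of all genes, and 0 were lower, against 9.85%. Of 9 markers of other cell types, 3 to 6 were well above background on an array, Adgre1 (macrophages), Cdh5 (endothelium) and Adipoq (fat cells) on 0 of 12. Of the same cell types, however, Ptprc and Cd68 (leukocytes and macrophages) were well above background on all 12, and so was the keratin Krt14, while the endothelial gene Pecam1 was on all arrays of 3 groups and on 2 of 3 in siBach1 at day 0. The other-cell list summed to 9.97 to 10.3 and 10.8 to 14.3 times the 75th percentile in siControl and siBach1 at day 0, and to 3.59 to 4.7 and 5.72 to 6.18 times at day 2. Of its 4 tested genes, Cd68 was lower in siBach1 at day 0 (-0.48), against 9.85% of all genes, and Krt14 higher at day 2 (1.5), against 6.38%. The part of these markers in the results below was not tested. With 3 arrays a group, precision is limited throughout.

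**Figure D2:**
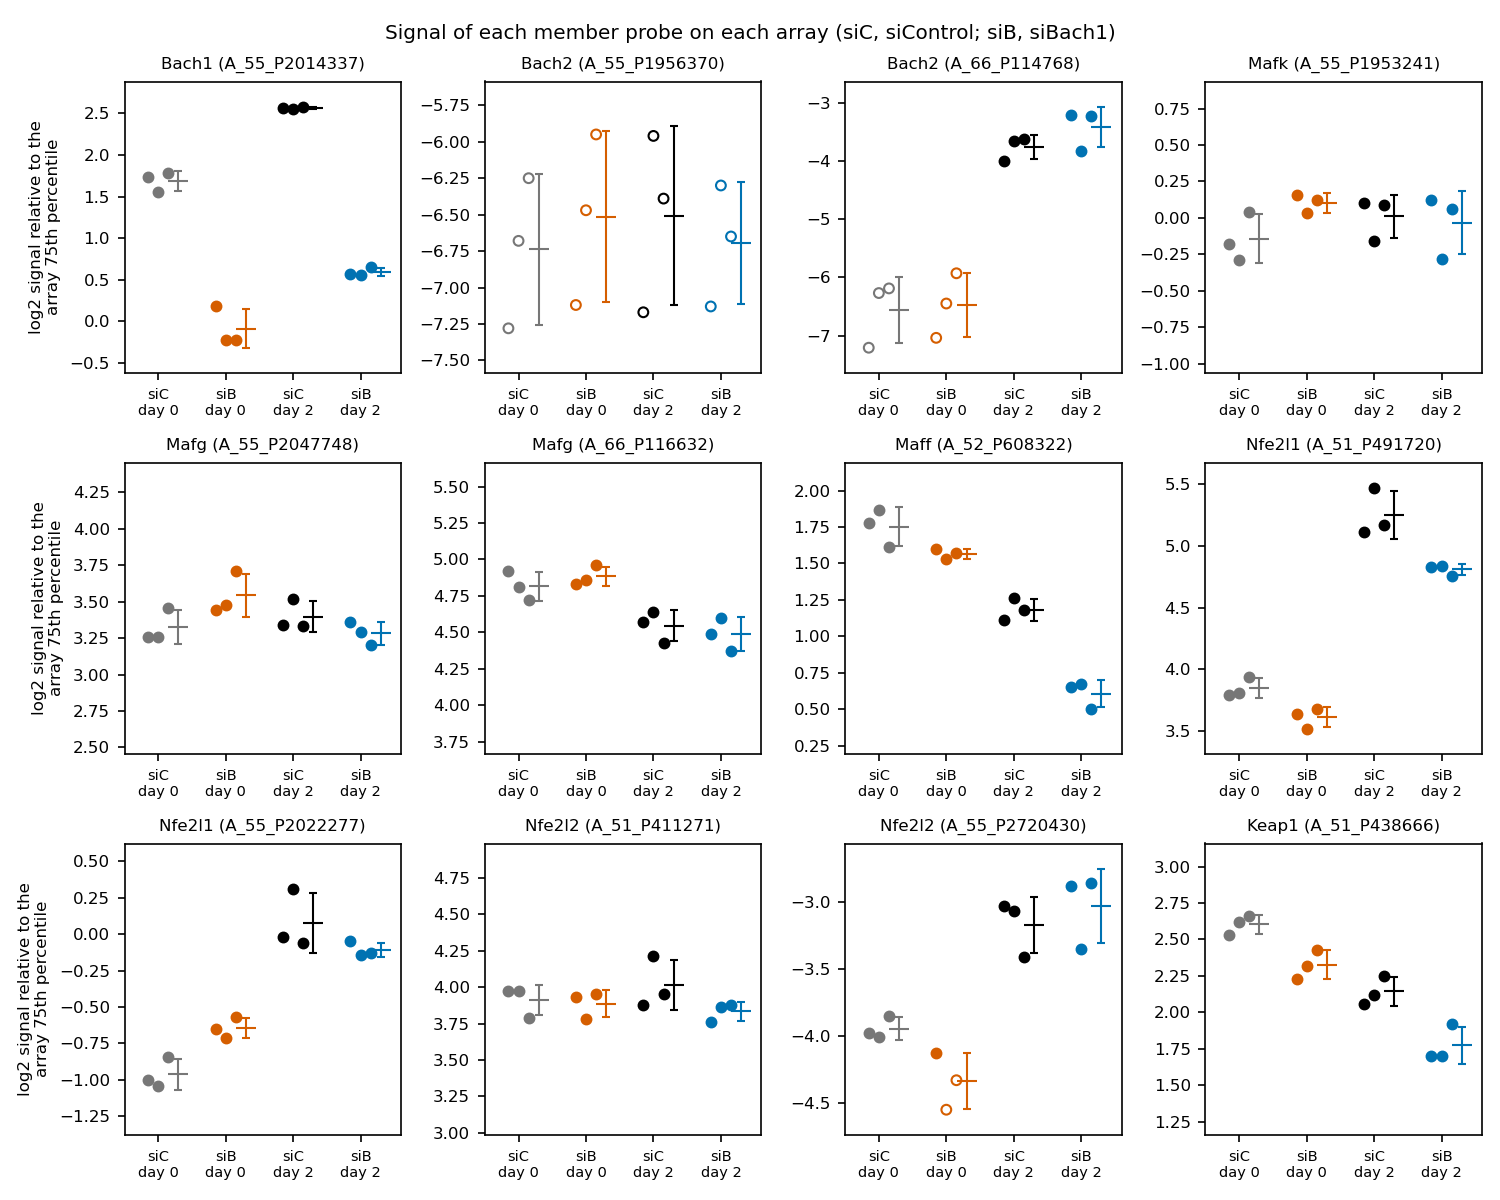
Log2 signal over the 75th percentile of the array (y axis, on its own scale in each panel) on each of the 12 arrays for the 12 member probes, by group (x axis, siC for siControl and siB for siBach1). Points are arrays in the order of replicates 1 to 3, open where the probe was not well above background, and bars give the mean and SD of 3. Bach1 separates by siRNA and day, Maff and Keap1 step down from siControl day 0 to siBach1 day 2, and both Nfe2l1 probes step up by day.

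The promoters of these genes are shown because several of them are themselves read by the factors they encode. In RefSeq's GRCm38.p6 table the 8 genes have 14 promoter windows, each from 250 bases before to 50 bases after a start. The core letters of an ARE, TGACNNNGC, were searched on both strands and were in 4 of the 14 windows, of Nfe2l2, Mafk, Mafg and Maff, and in 12.4% of all 32851 windows. A Maf element with the letters TGANTCAGC was in 0 of the 14 windows and in 1.19% of all, and the same 9 letters can meet both motifs. The stretches below run 5′ to 3′ on the gene's strand and end before the start, and capitals mark the 9 motif letters. For Nfe2l2 the stretch is chr2:75704855-75704913 (minus strand), for Mafk chr5:139791483-139791535 (plus), for Mafg chr11:120633721-120633797 (minus) and for Maff chr15:79346469-79346557 (plus). In Mafk and Mafg the motif is on the opposite strand. The first motif letter lies 240, 13, 222 and 112 bases before the start in that order.
Nfe2l2: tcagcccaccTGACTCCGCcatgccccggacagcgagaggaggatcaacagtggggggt
Mafk: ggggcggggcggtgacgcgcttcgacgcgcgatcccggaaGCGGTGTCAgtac
Mafg: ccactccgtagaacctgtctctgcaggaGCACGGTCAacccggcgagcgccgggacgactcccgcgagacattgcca
Maff: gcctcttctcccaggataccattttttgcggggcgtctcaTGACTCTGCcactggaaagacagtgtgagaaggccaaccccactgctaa
A match is a description of these letters and not a bound site, and binding was not measured on these arrays.

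Bach1, the repressor that the siRNA targets, was lower in siBach1 than in siControl on every array of both days. Its 1 probe (A_55_P2014337) gave 1.73, 1.55 and 1.78 on the 3 siControl arrays of day 0 and 0.18, -0.22 and -0.22 on the siBach1 arrays. The difference was -1.77 (SE 0.11, 95% interval -2.02 to -1.52, limma adjusted p = 1.2e-05), which left 29.2% of the control signal. At day 2 siControl gave 2.56, 2.55 and 2.58 and siBach1 0.57, 0.56 and 0.65. The groups were far apart on both days, and the siControl arrays of day 2 were nearly equal. The difference was -1.97 (SE 0.11, 95% interval -2.22 to -1.72, adjusted p = 1.4e-05), with 25.6% of the control signal left. In bulk RNA a loss in fewer cells and a loss of less RNA per cell give the same value. Within the slide of replicates 1 and 2 the difference was -1.66 at day 0 and -1.99 at day 2, and within the other slide it was -2.0 and -1.93.

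Bach1 also rose with differentiation, whether or not it had been silenced. From day 0 to day 2 it was 0.87 higher in siControl (adjusted p = 8.1e-05) and 0.68 higher in siBach1 (adjusted p = 0.00043). The order of the 4 group means was siBach1 day 0 (-0.09), siBach1 day 2 (0.59), siControl day 0 (1.69) and siControl day 2 (2.56), with no overlap between neighbours. Silenced cells at day 2 therefore kept less Bach1 signal than undifferentiated control cells, by 1.09. The silencing effect at day 2 minus that at day 0 was -0.19 (adjusted p = 0.55).

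Bach2, a repressor best known from B cells, had 2 probes and was near the array's background. Probe A_55_P1956370 was well above background on 0 of 12 arrays, with group means from -6.74 to -6.51, and was not tested. Probe A_66_P114768 was not well above background on any of the 6 arrays of day 0, where it gave -7.21, -6.27 and -6.19 in siControl and -7.04, -6.45 and -5.93 in siBach1. On all 6 arrays of day 2 it was well above background, at -4.00, -3.66 and -3.62 in siControl and -3.20, -3.82 and -3.23 in siBach1. The days were thus clearly apart and the siRNAs overlapped at each day. Since day 0 gives only a bound, set from the dimmest signals that were well above background on those arrays, Bach2 was at least 1.84-fold higher at day 2 in siControl and at least 1.94-fold higher in siBach1. The adjusted p of limma, 4.3e-05 and 2.2e-05, belongs to the measured differences of 2.80 and 3.05 and not to these bounds, and the probe entered the test only through the groups of day 2. With the normexp background correction the measured differences were 0.43 and 0.62, smaller than the bounds on the log2 scale, 0.88 and 0.96. Silencing of Bach1 gave a difference of 0.34 at day 2 (95% interval -0.39 to 1.07, adjusted p = 0.56), and the 2 probes carry the same RefSeq transcript but did not show the same pattern.

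Of the small Maf genes, Maff was the one with a lower signal in siBach1 by the test, at day 2. Maff (A_52_P608322), a small Maf known for induction by stress, gave 1.11, 1.26 and 1.18 in siControl at day 2 and 0.65, 0.67 and 0.50 in siBach1. The difference was -0.58 (SE 0.09, 95% interval -0.77 to -0.38, adjusted p = 0.0032), so that siBach1 had 67.1% of the control signal. Within slides it was -0.53 and -0.68. At day 0 the values were 1.78, 1.87 and 1.61 in siControl against 1.60, 1.53 and 1.57 in siBach1. These groups did not overlap, but the difference of -0.19 (95% interval -0.38 to 0.01) did not pass the test (adjusted p = 0.18). Maff also fell with differentiation in both arms, by 0.57 on the log2 scale in siControl (adjusted p = 0.0003) and by 0.96 in siBach1 (adjusted p = 7.4e-06). The resulting order, siControl day 0, siBach1 day 0, siControl day 2 and siBach1 day 2, descended with no overlap of arrays.

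Mafk and Mafg, the small Mafs that are the usual partners of Bach1 and Nrf2 in blood and many other cells, were not called in either silencing comparison. Mafk (A_55_P1953241) stayed between -0.29 and 0.16 on all 12 arrays, and its group means spanned -0.14 to 0.10 with neighbours overlapping. Its silencing differences were 0.24 at day 0 (95% interval -0.04 to 0.53, adjusted p = 0.23) and -0.04 at day 2 (95% interval -0.33 to 0.24, adjusted p = 0.88). Mafg had 2 probes. At day 0 A_66_P116632 gave 4.92, 4.81 and 4.72 in siControl and 4.83, 4.86 and 4.96 in siBach1, and at day 2 it gave 4.57, 4.64 and 4.43 against 4.49, 4.60 and 4.37. The siRNAs overlapped at both days, and both days' arrays were apart. The silencing differences of this probe were 0.06 (95% interval -0.14 to 0.27) and -0.06 (95% interval -0.26 to 0.15). Its difference by day was -0.27 in siControl (adjusted p = 0.029) and -0.40 in siBach1 (adjusted p = 0.0039). Neither call held under quantile normalization, at -0.15 (adjusted p = 0.24) and -0.10 (adjusted p = 0.4). The second Mafg probe, A_55_P2047748, gave 0.07 by day in siControl (adjusted p = 0.59) and -0.26 in siBach1 (adjusted p = 0.053). Its silencing differences within replicate numbers 1 to 3 were 0.18, 0.22 and 0.24 at day 0 (limma adjusted p = 0.19). At day 2 they were 0.02, -0.23 and -0.13 (adjusted p = 0.52).

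Nfe2l1, which encodes the activator of proteasome genes, was lower in siBach1 at day 2 by 1 of its 2 probes. Probe A_51_P491720 gave 5.11, 5.47 and 5.17 in siControl at day 2 and 4.83, 4.84 and 4.76 in siBach1. Every siBach1 array was below every siControl array, with a difference of -0.44 (SE 0.10, 95% interval -0.67 to -0.21, adjusted p = 0.023) and 73.8% of the control signal. The adjusted p was 0.061 under quantile normalization, and 0.066, 0.054 and 0.07 without siBach1 day 2 replicate 1, 2 or 3. Probe A_55_P2022277, of the same transcript by its label, gave -0.02, 0.31 and -0.06 against -0.05, -0.14 and -0.13 there, groups that overlapped, with a difference of -0.18 (95% interval -0.42 to 0.06, adjusted p = 0.32). At day 0 the probes differed in sign. A_51_P491720 gave 3.79, 3.81 and 3.94 in siControl and 3.64, 3.52 and 3.68 in siBach1, a difference of -0.23 (95% interval -0.46 to 0.00, adjusted p = 0.15). A_55_P2022277 gave -1.0, -1.04 and -0.84 against -0.65, -0.71 and -0.57, a difference of 0.31 (95% interval 0.07 to 0.55, adjusted p = 0.073). Neither passed the test, although neither pair of groups overlapped. Without siControl day 2 replicate 2, whose residuals enter the pooled variance, the second probe's adjusted p at day 0 was 0.028.

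Nfe2l2, which encodes the antioxidant activator Nrf2, was not called in either silencing comparison. Its probe A_51_P411271 gave 3.97, 3.97 and 3.79 in siControl and 3.93, 3.78 and 3.95 in siBach1 at day 0. At day 2 it gave 3.88, 4.21 and 3.95 against 3.76, 3.86 and 3.88. All neighbours in the order of group means, which ran from 3.83 to 4.01, overlapped, but siBach1 and siControl at day 2, which are not neighbours in it, met at 3.88 without overlapping. The 95% intervals of the silencing difference were -0.25 to 0.20 at day 0 and -0.41 to 0.05 at day 2 (adjusted p = 0.9 and 0.29). Its second probe, A_55_P2720430, carries the label of a predicted non-coding transcript and was dim, well above background on 10 of 12 arrays and on 1 of 3 in siBach1 at day 0. It gave a difference of -0.39 at day 0 (adjusted p = 0.13) and 0.14 at day 2 (adjusted p = 0.65).

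Keap1, the adaptor that holds Nrf2 for degradation, was lower in siBach1 at day 2, where siControl gave 2.06, 2.12 and 2.25 and siBach1 1.70, 1.70 and 1.92 (A_51_P438666). The arrays did not overlap, and the difference was -0.37 (SE 0.10, 95% interval -0.58 to -0.16, adjusted p = 0.032), with 77.4% of the control signal in siBach1. At day 0 siControl gave 2.53, 2.62 and 2.66 and siBach1 2.23, 2.32 and 2.43, again with no overlap. The difference of -0.27 (95% interval -0.49 to -0.06) had an adjusted p of 0.076, and of 0.011 with the replicate block. The call at day 2 was lost in 6 of the 12 fits that left out 1 array, where the highest adjusted p was 0.11. These were the fits without siControl day 0 replicate 2, siControl day 2 replicate 1, 2 or 3, and siBach1 day 2 replicate 1 or 2. Of the 11 other alternatives 8 kept the call. It was lost with no filter on dim probes (adjusted p = 0.15) and with only the arrays compared (0.096). The methods' t-test with Benjamini-Hochberg adjustment gave 0.12. Keap1 fell by day in both arms, by 0.46 in siControl (adjusted p = 0.0021) and by 0.55 in siBach1 (adjusted p = 0.00057) on the log2 scale.

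Differentiation moved more of these probes than silencing did, as it did over the whole array. In siControl 8 of 11 member probes were called, 5 higher and 3 lower at day 2, against 53.4% of all probes (24.6% higher, 28.7% lower). In siBach1 the count was also 8, with 5 higher and 3 lower, against 56.1% (23.8% higher, 32.3% lower). Arrays of the 2 days did not overlap for 8 member probes in siControl and 9 in siBach1, against 61.9% and 61.3% of all probes, and with a 2-fold limit added 3 were called in each arm, against 20.0% and 20.5%. 1 of the 3 is Bach2 by its measured difference, and its bounds above are under 2-fold. In siBach1 another is the dim Nfe2l2 probe, whose difference of 1.30 was 0.33 with the normexp background correction. The offset of 50 in that correction shrinks log2 differences of so dim a probe. Among the 9 member probes well above background on every array, 6 were called in siControl and 7 in siBach1, against 56.6% and 59.2% of the 24802 such probes. Higher at day 2 in both arms were Bach1, Bach2, both Nfe2l1 probes and the dim Nfe2l2 probe, and lower were Mafg (A_66_P116632), Maff and Keap1. Nfe2l1 A_51_P491720 had the largest rise among member probes above background on every array, by 1.40 in siControl (SE 0.10, adjusted p = 1.8e-06) and 1.2 in siBach1 (adjusted p = 4.9e-06). Its other probe rose by 1.03 (adjusted p = 1.8e-05) and 0.54 (adjusted p = 0.0015). The dim Nfe2l2 probe gave -3.98, -4.01 and -3.85 at day 0 and -3.03, -3.07 and -3.41 at day 2 in siControl. That difference of 0.78 (adjusted p = 0.0021) was 0.21 (adjusted p = 0.065) with the normexp background correction, while the bright Nfe2l2 probe gave 0.10 (adjusted p = 0.43). The comparisons of the 2 arms share no array with each other, but each shares its arrays with the silencing comparisons.

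**Figure D3:**
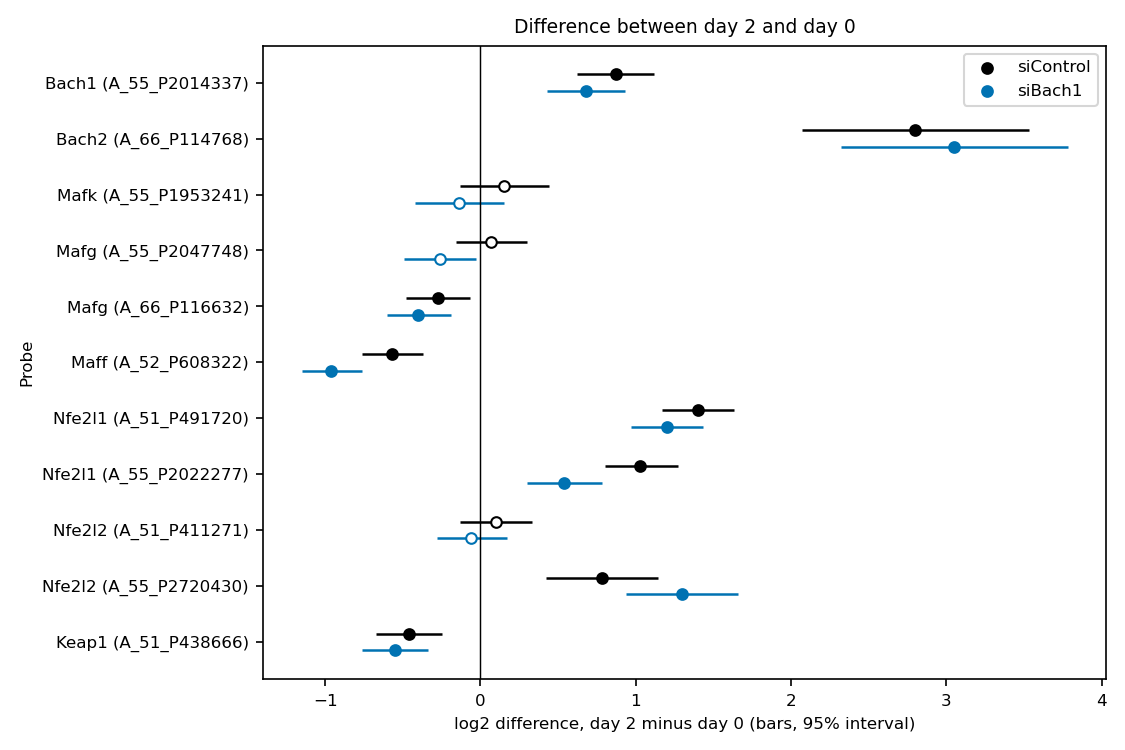
Log2 difference between day 2 and day 0 (x axis, day 2 minus day 0) for the 11 tested member probes (y axis) in siControl (black) and siBach1 (blue), with 95% intervals from limma over 3 arrays a group. Filled points passed an adjusted p of 0.05. Bach2 is plotted at its measured differences of 2.80 and 3.05, although its signal at day 0 was not well above background.

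Whether the effect of silencing itself differed between the days was tested as the difference of the 2 differences. 0 of 11 member probes were called by limma, against 4.59% of all probes (2.39% higher, 2.20% lower), and 4 had an unadjusted p under 0.05, 3 below 0 and 1 above, beside 21.8% of all probes. With limma-trend and a robust prior 0 were called, and 0 with a 2-fold limit, against 1.44% of all probes. The 4 were Nfe2l1 A_55_P2022277 at -0.50 (adjusted p = 0.093), Maff at -0.39 (adjusted p = 0.1), the second Mafg probe at -0.33 (adjusted p = 0.22) and the dim Nfe2l2 probe at 0.53 (adjusted p = 0.21). With the replicate block 1 was called, Maff, with an adjusted p of 0.048, against 13% of all probes.

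The 4 lists of genes that work with these factors named here were read beside them, with 1 probe per gene. Of the other CNC and large Maf factors, 4 were tested, and 1 was higher in siBach1 at each day, against 10.1% of 15642 genes higher and 9.85% lower at day 0 and 6.38% and 7.40% at day 2. That gene was Maf, a large Maf with an activation domain of its own. Maf (A_51_P405167) gave -1.43, -1.48 and -1.46 in siControl and -0.64, -0.88 and -0.54 in siBach1 at day 0, and 0.78, 1.16 and 0.79 against 1.82, 2.08 and 2.04 at day 2. It was higher in siBach1 on every array, by 0.76 (adjusted p = 0.0029) and 1.07 (adjusted p = 0.00095). Its second probe, A_55_P2633949, gave 0.56 (adjusted p = 0.024) and 1.5 (adjusted p = 0.00027), and the medians of the list were 0.01 and 0.27 against 0.08 and -0.03 over all genes. With differentiation 2 of the 4 genes were higher in each arm and 0 lower (1 in siControl under quantile normalization). Maf was called in both arms, Nfe2l3 in siControl (0.56, adjusted p = 0.033) and Nfe2 in siBach1 (1.38, adjusted p = 0.00085). Nfe2 was dim, well above background on 8 of 12 arrays in all. Its siBach1 mean at day 0, -4.89, lay under the -4.38 used for the bound of Bach2 there, so that 1.38 is a measured difference only. The counts of genes called by day stand against 27.7% higher and 30.1% lower over all genes in siControl and 26.7% and 33.3% in siBach1. The response to silencing differed between the days for 0 of the 4, against 3.08% of genes higher and 2.74% lower, or for 1 where all probes of a gene were averaged.

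Of 12 genes that act on the members' proteins, such as ligase subunits, kinases and proteases, 2 were higher and 1 was lower in siBach1 at day 0. With the probe used for each gene, the largest called change was that of Fbxw7, a ligase subunit that recognises Nrf1, from 0.98 ± 0.06 to 1.46 ± 0.17 (SD, n = 3), a rise of 0.48 (adjusted p = 0.0073), where its second probe A_51_P506683 gave 0.38 (adjusted p = 0.084). Ddi2, the protease that cleaves Nrf1, was lower at day 0, from 1.46 ± 0.08 to 1.09 ± 0.10, by -0.38 (adjusted p = 0.011), and by -0.53 (adjusted p = 0.0051) on its second probe A_55_P2093634. At day 2 neither passed the test, with -0.17 (adjusted p = 0.29) for Fbxw7 and -0.11 (adjusted p = 0.42) for Ddi2. At day 2, 1 of the 12, the ligase subunit Rbx1, was lower (-0.29, adjusted p = 0.039) and 0 were higher. The second Rbx1 probe, A_55_P2725444, gave -0.29 there and did not pass (adjusted p = 0.058). The list medians were 0.18 at day 0 and 0.00 at day 2, against 0.08 and -0.03 over all genes. With all probes of a gene averaged, the counts were 4 higher and 1 lower at day 0 and 1 and 1 at day 2, and with normexp 0 were called at day 2. With quantile normalization Rbx1 gave -0.16 (adjusted p = 0.18) and was not called, and the 1 call at day 2 was a higher signal of another gene, Ngly1, an enzyme that strips glycans from Nrf1 (0.26, adjusted p = 0.039). By day, 8 were higher and 2 lower in siControl, and 6 and 4 in siBach1, where both quantile normalization and normexp gave 8 and 2. With all probes of a gene averaged, siControl had 7 higher and 2 lower. Ddi2 was among the higher in siControl (0.30, adjusted p = 0.0099), but its second probe was called lower there (-0.40, adjusted p = 0.0057). The shares over all genes are those given for the CNC list. The silencing effect differed between the days for 3 of the 12, all lower, and under quantile normalization or normexp for 1, Fbxw7.

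Of 26 tested genes with a MARE or ARE known from textbooks, 8 were higher and 4 lower in siBach1 at day 0, against 10.1% and 9.85% of all genes, and 7 were higher and 2 lower at day 2, against 6.38% and 7.40%. With quantile normalization they were 6 and 4 at day 0 and 11 and 1 at day 2. The list medians, 0.14 and 0.05, stood beside 0.08 and -0.03 over all genes. Hmox1 (A_55_P2757433), the haem oxygenase, gave 3.46, 3.30 and 3.76 in siControl at day 0 and 6.66, 6.74 and 7.02 in siBach1, a difference of 3.30 (adjusted p = 1.4e-06). At day 2 it gave 2.93, 3.17 and 2.82 against 6.12, 6.0 and 6.18, a difference of 3.12 (adjusted p = 2.8e-06). Both days showed siBach1 far above siControl on every array. Slc40a1, the iron exporter ferroportin, was higher by 1.91 (adjusted p = 0.00036) and 1.41 (adjusted p = 0.0039). Gclm, the modifier subunit of the enzyme that makes the glutathione precursor, was higher by 0.79 (adjusted p = 0.00089) and 1.18 (adjusted p = 0.00022). The genes that were lower included Gsr, glutathione reductase, at both days (-0.70 and -0.41), Txnrd1, thioredoxin reductase, at day 0 (-0.77) and Nqo1, a quinone reductase, at day 2 (-0.73). These values stood beside Nfe2l2 differences of -0.03 and -0.18 that did not pass the test. With differentiation 22 of 26 were lower and 1 higher in siControl, against 30.1% and 27.7% of all genes. In siBach1 22 were lower and 2 higher, against 33.3% and 26.7%. The list medians in the 2 arms were -1.15 and -0.99, against 0.01 and -0.06 over all genes. The motif TGACNNNGC was in a promoter window of 7 of the 20 listed genes that have one and TGANTCAGC in 4, against 14.0% and 1.37% of all genes.

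Of 31 genes of proteasome subunits, which Nrf1 is known to drive, 1 was higher and 1 lower in siBach1 at day 0, against 10.1% and 9.85% of all genes. At day 2, 0 were higher and 9 lower, against 6.38% and 7.40%. The list median was -0.27 at day 2 against -0.03 over all genes, and at day 0 it was 0.11 against 0.08. Psmd14, the deubiquitinase of the proteasome lid, went from 4.96 ± 0.06 to 4.52 ± 0.03 (SD, n = 3) at day 2, by -0.44 (adjusted p = 0.0076), and by -0.43 (adjusted p = 0.0098) on its probe A_52_P652212. Psmc5, an ATPase of the base, went from 4.80 ± 0.06 to 4.37 ± 0.05, by -0.43 (adjusted p = 0.01). With quantile normalization 4 were lower at day 2, and at day 0 the count was 0 higher and 4 lower. With differentiation 17 were lower and 2 higher in siControl, against 30.1% and 27.7% of all genes. In siBach1 29 were lower and 0 higher, against 33.3% and 26.7%. The list medians were -0.28 in siControl and -0.64 in siBach1. With quantile normalization the counts were closer, 14 lower and 3 higher in siControl and 18 lower and 2 higher in siBach1, while both Nfe2l1 probes rose in both arms. The difference of the silencing effect between the days was called lower for 3 and higher for 0 of the 31, against 2.74% and 3.08% of all genes. It was called for 0 under quantile normalization and for 6, all lower, with all probes of a gene averaged.

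**Figure D4:**
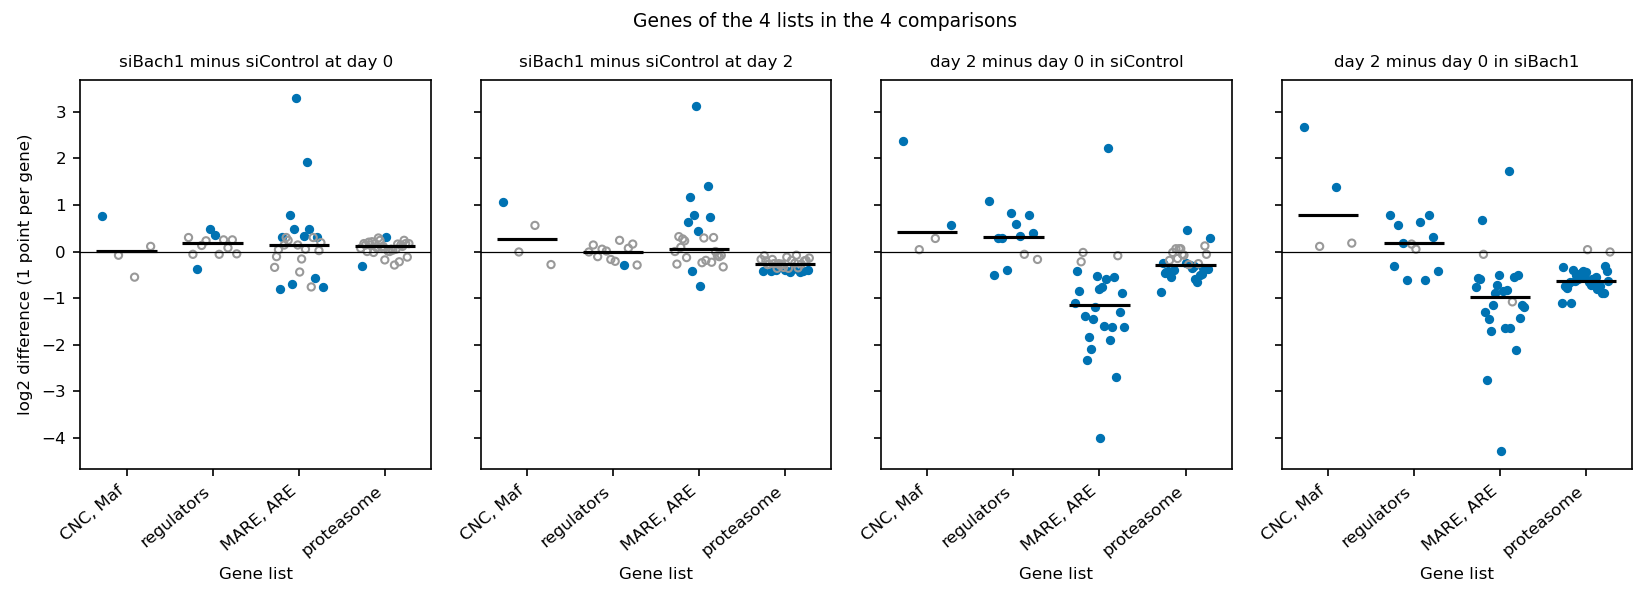
Log2 difference (y axis, second group minus first) of each tested gene in 4 lists (x axis): other CNC and large Maf factors, regulators of the members' proteins, MARE and ARE genes, and proteasome subunits. Panels are the 2 silencing and the 2 day comparisons, filled points passed an adjusted p of 0.05 in limma, and bars are list medians. Hmox1 stands highest in both silencing panels, and of the proteasome genes 29 of 31 are called lower in siBach1 by day, 18 under quantile normalization.

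For the 3 members above background on every array whose 4 group means spanned at least 1 on the log2 scale, the genes most like them over the 12 arrays were found by the root mean square of the difference between their profiles, each centred on its own mean, among 21623 probes compared. For Bach1 they were Snx13 (0.27), Sv2b (0.29) and Clcn5 (0.31). Snx13, a sorting nexin, had group means of -1.68 and -3.57 in siControl and siBach1 at day 0 and of -0.98 and -2.42 at day 2. For Maff they were 3110009E18Rik (0.064), Raet1c (0.083) and Psmd14 (0.088). Psmd14 by its probe A_52_P652212 went from 3.86 and 3.6 at day 0 to 3.24 and 2.81 at day 2. For Nfe2l1, by A_51_P491720 as the brighter of its probes, they were Gm41518 (0.096), Slc29a1 (0.098) and Mob2 (0.1). Slc29a1, a nucleoside transporter, went from 4.89 and 4.69 at day 0 to 6.33 and 6.0 at day 2. These likenesses are a description of the same 12 arrays.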

How the data were processed

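Cyanine 3 labelled RNA of C2C12 cells was hybridized to 12 Agilent 8x60K arrays, 3 per group. The authors deposited the scanner's processed spot intensity, from which background had been subtracted, and a table of log2 values that the authors normalized to each array's 75th percentile and centred per probe. The submitters' processing notes give Agilent Feature Extraction 9.1, whereas the scanner file headers give 10.7.3.1.

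Here, control spots and 76 to 110 outlier spots per array were removed, the processed intensity was put on the log2 scale, repeated spots were averaged, and signals were set against the 75th percentile of their array. The result differed from the deposited log2 values by at most 0.0045 after centring. The 29664 of 56605 probes that passed the scanner's background rule in all 3 replicates of any group were tested in 1 limma 3.58.1 fit (R 4.3.3) of the 4 groups without a block, with Benjamini-Hochberg adjustment over all of them. Tables were made in Python 3.11 with pandas 2.3.3 and numpy 2.4.6. Scripts were tested on simulated data. Residuals of arrays with the same replicate number correlated at 0.142 to 0.595 in all 18 pairs. For different numbers the range was -0.44 to 0.26 in 36 pairs, which overlaps the first. Arrays of the same number are thus partly paired, and the main fit without a block does not use this. Calls and p-values are from that fit unless another is named. The numbers also share a slide.

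All member probes are named, and from each list the called genes of at least 2-fold in a silencing comparison, or otherwise the 2 with the largest called change; Gsr, Txnrd1, Nqo1, Rbx1, Ngly1, Nfe2, Nfe2l3, Gsk3b, Fech, Psma7, Psmb3, Psmb6 and the marker genes given with values were named after their values were seen. Members, lists and tests were chosen with earlier results of these data known. Of the 4 lists Nrl was not tested and Gsta1 had no probe by name, and 1 further gene chosen for a list is not reported here and entered no count. For a listed gene the probe with the highest mean signal was used. Of the 12 member probes, 10 carry an accession in RefSeq's GRCm38.p6 table. Promoter windows come from that table, and no other coordinates were used. Alternatives were quantile normalization, normexp (offset 50), the authors' values, other filters, blocks, only the arrays compared, the methods' t-test, limma-trend with a robust prior, a 2-fold limit and each array left out. The list counts were run only with quantile normalization, with normexp and with all probes of a gene averaged, and without a block.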

Additional observations from a re-analysis of the deposited data

Results flagged for a closer look

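The silencing effect differed between day 2 and day 0 (limma's test of the difference, n = 3 arrays a group) for 7 of the 73 genes tested in the 4 lists read beside the members, 1 higher and 6 lower, against 3.08% of all genes higher and 2.74% lower, and for no member without a block (Maff with the replicate block, adjusted p = 0.048). Given as the effect at day 2 minus that at day 0 on the log2 scale, it was -0.55 for Rbx1 (adjusted p = 0.027), a subunit of cullin ligases, -0.56 for Gsk3b (adjusted p = 0.033), a kinase, and -0.65 for Fbxw7 (adjusted p = 0.028). It was 0.89 for Fech (adjusted p = 0.01), which makes haem and was lower in siBach1 at day 0 (-0.80, adjusted p = 0.00036) but gave 0.09 at day 2 (adjusted p = 0.59). Among proteasome subunits it was -0.55 for Psma7 (adjusted p = 0.036), -0.57 for Psmb3 (adjusted p = 0.047) and -0.53 for Psmb6 (adjusted p = 0.038), all 3 of which were lost under quantile normalization and normexp. Of Rbx1, Gsk3b and Fbxw7 only Fbxw7 was still called under each of these. The other probes of Gsk3b, Fbxw7 and Psmb6 did not pass the same test (adjusted p = 0.08 to 0.21), and that of Rbx1 did (-0.55, adjusted p = 0.035). The second probe of Maf, A_55_P2633949, gave 0.95 (adjusted p = 0.03), where its first gave 0.31 (adjusted p = 0.37). No list was run with a block. Over all probes, the replicate block raised the share called in this test from 4.59% to 13.0%.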

How the results depend on the processing

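No value of a member probe that was past the threshold changed its sign under any of the alternatives run. The count of member probes called at day 0, 1, was 2 with quantile normalization, with the replicate block, with the slide block and with limma-trend and a robust prior, each time with Keap1 added, and 5 with the methods' t-test unadjusted. Without 1 array it was 1 to 2. The count at day 2, 4, was 2 with no filter on dim probes, with only the arrays of the comparison and with the t-test after Benjamini-Hochberg, and 1 with a 2-fold limit, where only Bach1 was left. Without 1 array it was 2 to 4, with 2 without siBach1 day 2 replicate 1 or 2. The counts by day, 8 in each arm, were 3 with a 2-fold limit, and 7 to 8 in siControl and 8 to 9 in siBach1 without 1 array. The difference between days, 0 called, was 1 (Maff) with the replicate block (adjusted p = 0.048) and with the slide block (0.04), and 0 in every fit without 1 array. The replicate block changed no other call of a member probe. For single probes, 533 of the values under the alternatives other than leaving out an array stayed on their side of the threshold, 13 came to pass it and 16 no longer did, and without 1 array these were 643, 4 and 13. Bach1 and Maff kept their calls at day 2 in all 12 fits without 1 array and in the 11 other fits with no fold limit, with adjusted p up to 0.0041 for Bach1 and 0.042 for Maff. The t-tests and the fit of only the arrays compared give no value for the difference between days. Signals near background limit Bach2 and the second Nfe2l2 probe. The cause of these changes was not tested.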
